A study of Homo sapiens with 6 samples.

Results

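The 39 protein-coding genes named HOXA, HOXB, HOXC or HOXD with a number were followed through a PRO-seq experiment on depletion of the RNA-binding protein SFPQ. Of the 39 names, 36 had a row in the normalized table of 25827 features, and HOXA5, HOXD4 and HOXD13 are not in the table analysed here. All 36 reached a value of 10 normalized reads in at least 2 of the 6 libraries: 10 of 11 HOXA genes, 10 of 10 HOXB genes, 9 of 9 HOXC genes and 7 of 9 HOXD genes. The rule uses gene names only and no measured value.

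PRO-seq measures nascent RNA at engaged RNA polymerases in permeabilized cells, so its signal reports transcription in progress and not the stock of mature mRNA. The cells were SBC-3, an established line of human small cell lung cancer, all transfected in the same way with 10 nM siRNA, and collected after 72 h. The groups were siSFPQ-2 and siSFPQ-3, each an siRNA against SFPQ and labelled as SFPQ knockdown, and siCtrl, the control siRNA, labelled WT, with 2 libraries in each group. The labels do not give separate cultures for the 2 libraries of a group, so the p-values measure the spread between these libraries, which may be technical.

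HOX genes encode homeodomain transcription factors that set position along the head-to-tail axis of the embryo. They lie in 4 clusters, and genes that occupy the same place in different clusters form a paralogue group, numbered from 1 at the anterior end to 13 at the posterior end. Low-numbered genes are switched on earlier and further forward in the embryo, and many cancers, lung cancers among them, transcribe HOX genes in adult cells. Here groups 1 to 3 are called anterior, 4 to 8 central and 9 to 13 posterior. In RefSeq coordinates of GRCh38.p14 the HOXB cluster spans chr17:48528526-48728750, HOXC chr12:53938831-54056030 and HOXD chr2:176087487-176190907, and the HOXA cluster lies on chromosome 7.

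The libraries held between 12072813 and 18475158 reads, and 1 read was worth between 0.797 and 1.11 normalized reads, so the HOX genes with fewest reads are the least precise. SFPQ itself had 1825 and 1972 normalized reads with siSFPQ-2, 1922 and 2466 with siSFPQ-3, and 2294 and 2435 with siCtrl (log2 fold change -0.22, adjusted p = 0.137); an siRNA acts on the mature mRNA, so this value does not check the knockdown. Of 7 neuroendocrine markers of small cell lung cancer, 4 were in the table analysed here, and they summed to 281 to 492 in siSFPQ libraries and 391 to 437 in siCtrl libraries, with CHGA at or below 5.54. Of 4 markers of non-neuroendocrine forms, which summed to 7285 to 8116 with siSFPQ and 6260 to 6604 with siCtrl, YAP1 rose (log2 fold change 0.73) and MYC (-0.57) and POU2F3 (-0.54) fell. The 3 epithelial markers in the table summed to 2207 to 2717 with siSFPQ and 921 to 1016 with siCtrl, 3 fibroblast markers (DCN and LUM not among them) to 508 to 639 and 316 to 334, and 2 immune markers to 463 to 752 and 747 to 749.96, and no endothelial marker was in the table. The part of these shifts in the HOX results was not tested.

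Most posterior HOX genes had less nascent transcription in the siSFPQ libraries than in the siCtrl libraries. With the siSFPQ-2 and siSFPQ-3 groups averaged and set against siCtrl, 16 of the 36 HOX genes fell, 3 rose and 17 did not pass the test. The background for this comparison is high, since 23.2% of the 21773 features tested were lower and 24.8% higher (23% and 28.4% of the 14020 protein-coding ones). The median log2 fold change was -0.36 over the HOX genes and -0.02 over all features tested. Of the 15 posterior genes 11 fell and none rose (median log2 fold change -0.59), and the other 4 had negative values too. Of the 13 central genes 3 fell and 2 rose (median 0.00), and of the 8 anterior genes 2 fell and 1 rose (median -0.07). These medians and counts are descriptions, and the difference between the posterior genes and the rest was not tested.

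Values were compared as log2(value + 1), with limma across all features and Benjamini-Hochberg adjustment at 0.05; on this scale changes of low genes are understated. The counts leaned on the siCtrl libraries: without siCtrl library 1, 8 HOX genes fell and 1 rose, without siCtrl library 2, 9 fell and 2 rose, and without siSFPQ-2 library 2, 6 rose. The posterior count of 11 became 7 without either siCtrl library, while the share of all features called lower became 11.3% and 11.6%. HOXA10, HOXB7, HOXB9, HOXB13, HOXC10 and HOXC12 passed as lower and HOXC4 as higher in all 14 alternative settings run. The share of all features that passed in all of them was not counted, so this count has no background here. Each of the other 12 calls was lost in at least 1 setting. In each case this was when siCtrl library 1, siCtrl library 2 or either was left out, and for some in further settings.

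**Figure D1:**
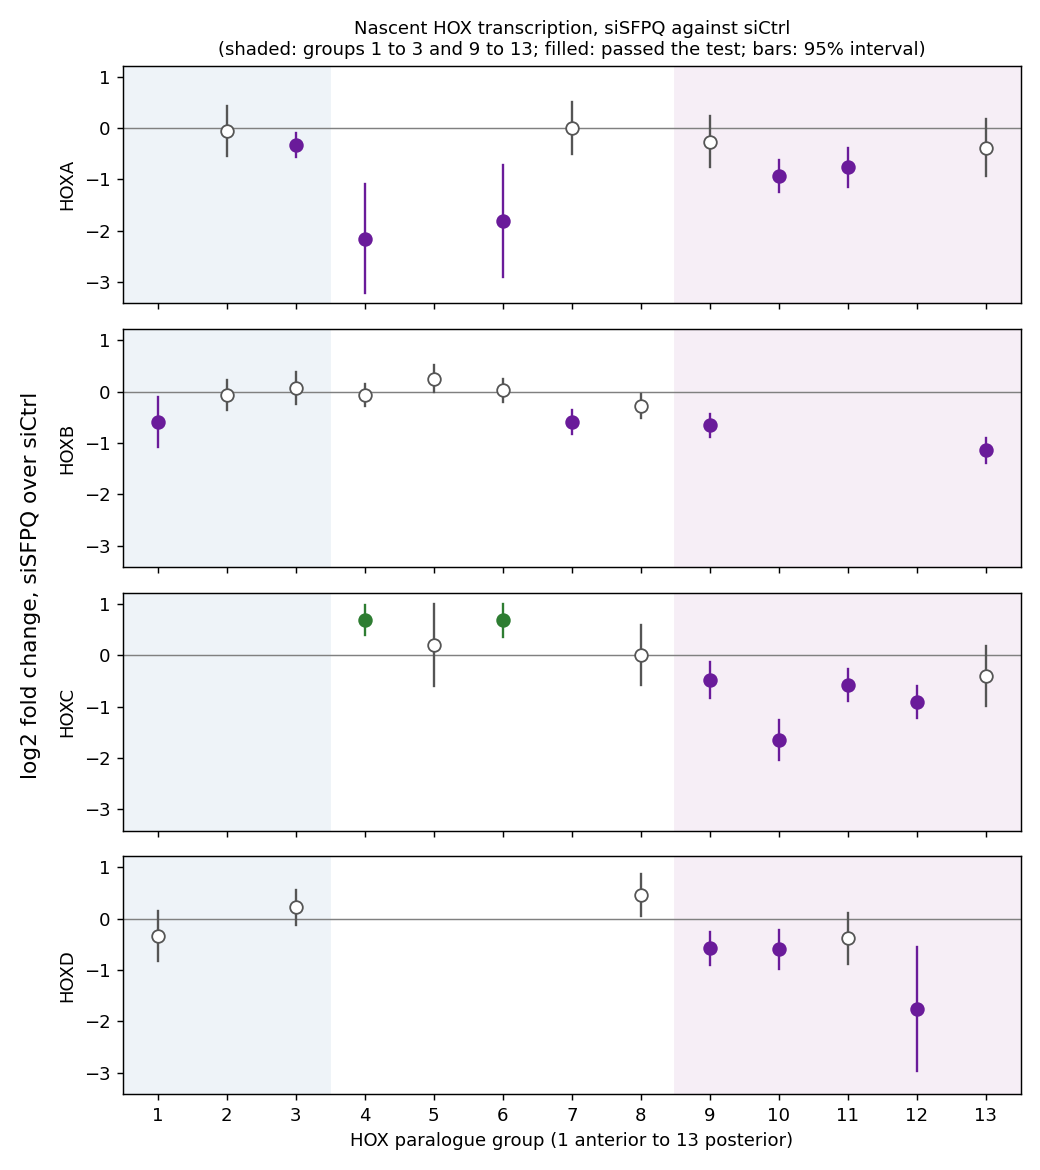
Log2 fold change of nascent transcription, siSFPQ (both siRNAs) over siCtrl, for the HOX genes reported by name or range, by paralogue group (horizontal axis) in 4 panels, 1 per cluster. Filled points passed the test (purple lower, green higher), open points did not, and bars are 95% intervals of the limma fit. All 15 posterior genes lie below 0, from -1.76 to -0.26.

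HOXB13, the posterior end of the HOXB cluster and a gene of prostate and tail development, gave the smallest adjusted p among the HOX genes. It had 819.9 and 729.7 normalized reads with siSFPQ-2, 628 and 615 with siSFPQ-3, and 1393 and 1696 with siCtrl. Every siSFPQ library lay below both siCtrl libraries, and the 2 siSFPQ-3 libraries were the lowest. The log2 fold change was -1.15 ± 0.11 (SE), a level 0.451 times that of siCtrl, with adjusted p = 1.65e-05. Its neighbour HOXB9 had 1660.4 and 1488 normalized reads with siSFPQ-2, 1595 and 1644 with siSFPQ-3, and 2347 and 2707 with siCtrl (log2 fold change -0.66, adjusted p = 0.000389). The siSFPQ values of HOXB9 lay close together and all below siCtrl.

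HOXC10, a posterior gene of hindlimb and lower spinal cord patterning, showed the largest fold among HOX genes above 100 normalized reads in siCtrl. It had 109 and 83.0 normalized reads with siSFPQ-2, 78.5 and 73.9 with siSFPQ-3, and 237 and 305 with siCtrl, with a log2 fold change of -1.65 ± 0.18 (SE) and adjusted p = 4.24e-05. HOXC12, which lies further toward the posterior end, had 122 and 109 with siSFPQ-2, 113 and 108 with siSFPQ-3, and 211 and 215 with siCtrl (log2 fold change -0.91, adjusted p = 0.000527). Both genes thus separated the groups in every library. HOXC11 had 289 and 266 normalized reads with siSFPQ-2, 256 and 225 with siSFPQ-3, and 336 and 446 with siCtrl (log2 fold change -0.58, adjusted p = 0.00591). HOXC9 had 163 and 129.6 with siSFPQ-2, 123 and 105 with siSFPQ-3, and 186 and 175 with siCtrl (log2 fold change -0.49, adjusted p = 0.0261). The groups did not overlap for either, but the gap of HOXC9 was narrow, and HOXC11 lost its call without siCtrl library 2 (adjusted p = 0.128) and HOXC9 without either siCtrl library (0.167 and 0.107) or siSFPQ-2 library 2 (0.0705). HOXC13, the last gene of the cluster and one that acts in hair and nail, had 39.5 to 74.0 in siSFPQ libraries and 67.7 and 91.9 in siCtrl libraries, which overlap (adjusted p = 0.223).

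HOXA10, known for patterning of the uterus and hindlimb and for its role in blood cells, had 1299 and 1012 normalized reads with siSFPQ-2, 1206 and 888 with siSFPQ-3, and 1983 and 2181 with siCtrl. No siSFPQ library came near the siCtrl range. The log2 fold change was -0.93 ± 0.14 (SE), adjusted p = 0.000365. HOXA11, a gene of forearm and uterus development, had 756 and 546 with siSFPQ-2, 601 and 402 with siSFPQ-3, and 887 and 1026 with siCtrl (log2 fold change -0.76, adjusted p = 0.00416, and 0.0742 without siCtrl library 2). The spread of HOXA11 among siSFPQ libraries was wide, although the groups did not overlap. The remaining posterior HOXA genes did not pass: HOXA9, known from acute leukaemia, changed by -0.26 (log2, adjusted p = 0.348) and HOXA13, a gene of hand, foot and genital patterning, by -0.38 (adjusted p = 0.237).

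In the HOXD cluster, which patterns limbs, HOXD9 had 147 and 139.5 normalized reads with siSFPQ-2, 161 and 176 with siSFPQ-3, and 263 and 205 with siCtrl (log2 fold change -0.58, adjusted p = 0.00857). HOXD10 had 144 and 164 with siSFPQ-2, 171 and 185 with siSFPQ-3, and 306 and 204 with siCtrl (log2 fold change -0.59, adjusted p = 0.0158). The 2 siCtrl libraries stood further apart in both genes than the siSFPQ libraries did, and both calls were lost without siCtrl library 1 (adjusted p = 0.146 and 0.266). HOXD12 rested on few reads, with 13.4 and 2.21 normalized reads under siSFPQ-2, 9.68 and 8.10 under siSFPQ-3, and 20.7 and 34.3 under siCtrl (log2 fold change -1.76 ± 0.54 (SE), adjusted p = 0.0211). Leaving out siCtrl library 1 or siCtrl library 2 took it over the threshold (adjusted p = 0.0645 and 0.195). HOXD11 overlapped between the groups, with 219 to 399 in siSFPQ libraries and 309 and 456 in siCtrl libraries.

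**Figure D2:**
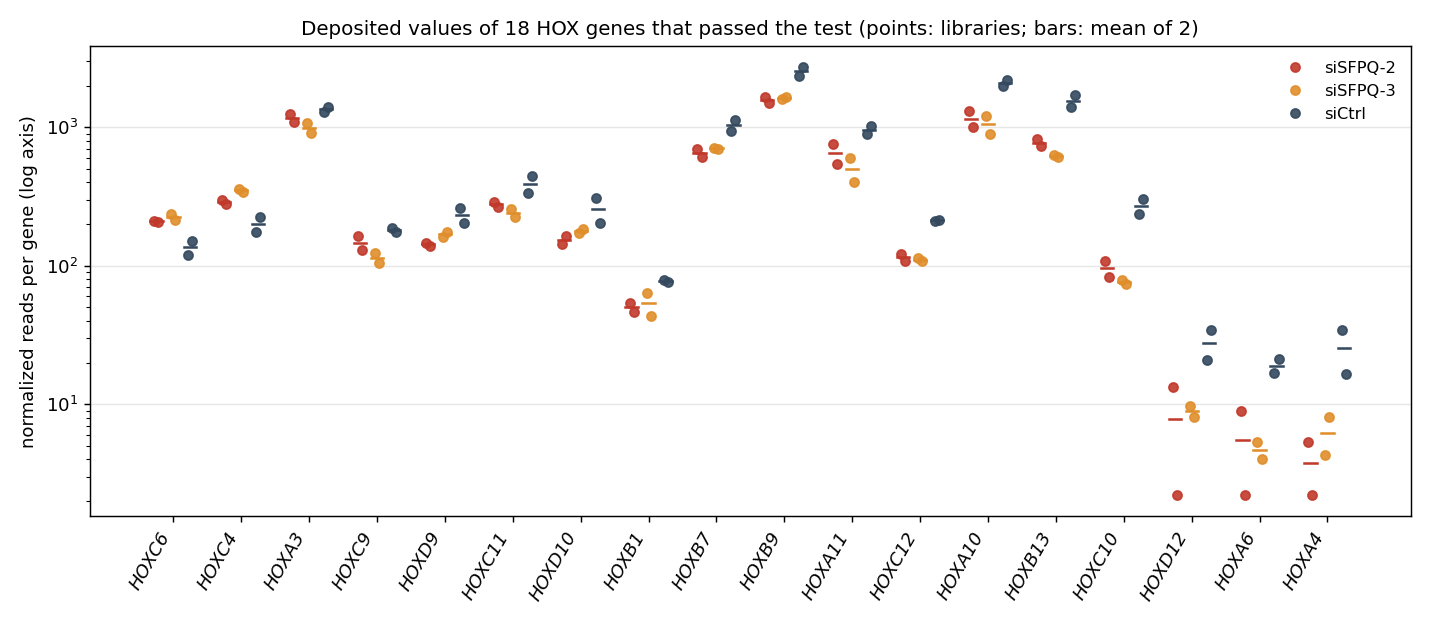
Normalized reads per library (log axis) of 18 HOX genes that passed the test, with rises at the left and falls ordered by size toward the right. Points are libraries and short bars the mean of 2; for every gene shown, the 4 siSFPQ libraries lie on one side of both siCtrl libraries.

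Of all features tested, 31% had the 4 siSFPQ libraries below both siCtrl libraries and 30.3% had them above; among HOX genes the counts were 17 and 4 of 36. The HOXC cluster split by position. Its 4 central genes had log2 fold changes from 0.00 to 0.68, and its 5 posterior genes from -1.65 to -0.40. HOXC4, a gene of neck and thorax patterning, had 299 and 279 normalized reads with siSFPQ-2, 357 and 342 with siSFPQ-3, and 175 and 225 with siCtrl (log2 fold change 0.68 ± 0.13 (SE), adjusted p = 0.0019). HOXC6, which takes part in thoracic and mammary gland patterning, had 210.3 and 207 with siSFPQ-2, 238 and 214 with siSFPQ-3, and 119.5 and 152 with siCtrl (log2 fold change 0.68, adjusted p = 0.00308, and 0.0605 without siCtrl library 1). Both were higher in 4 of 4 siSFPQ libraries. HOXC4, HOXC5 and HOXC6 have the same RefSeq start, position 54016888 of chromosome 12, and overlap, so reads of a shared transcript may enter more than 1 of these values and they are not independent. HOXC8, whose span overlaps none of them, did not pass, with 22.3 to 31.2 in siSFPQ libraries and 25.5 and 29.9 in siCtrl libraries (log2 fold change 0.00, 95% interval -0.58 to 0.59).

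HOXB1, the most anterior HOXB gene and a factor of hindbrain patterning, fell on few reads, with 53.5 and 46.5 under siSFPQ-2, 63.5 and 43.5 under siSFPQ-3, and 78.9 and 76.4 under siCtrl (log2 fold change -0.59, adjusted p = 0.045). The call of HOXB1 was the least stable of all, being kept in 7 of 14 settings; the adjusted p was 0.192 without siCtrl library 1, 0.163 without siCtrl library 2, 0.0948 without siSFPQ-2 library 2 and 0.101 without siSFPQ-3 library 2.

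HOXA3, a gene of pharyngeal arch and thymus development, had 1248 and 1089 normalized reads with siSFPQ-2, 1069 and 905 with siSFPQ-3, and 1295 and 1409 with siCtrl (log2 fold change -0.33, adjusted p = 0.0238). The highest siSFPQ library lay just below the lower siCtrl library, and adjusted p was 0.0778 without siCtrl library 1, 0.2 without siCtrl library 2 and 0.0651 without siSFPQ-2 library 2. The RefSeq span of HOXA3, 45574 bases, contains HOXA4, HOXA5 and HOXA6 and overlaps the antisense genes HOXA-AS2 and HOXA-AS3. The value of HOXA3 is therefore not independent of theirs where the counting assigned a read to more than 1 gene.

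The largest HOX falls by fold came from central HOXA genes near the detection limit. HOXA4 had 5.35 and 2.21 normalized reads with siSFPQ-2, 4.30 and 8.10 with siSFPQ-3, and 34.3 and 16.6 with siCtrl (log2 fold change -2.15 ± 0.48 (SE), adjusted p = 0.00386, and 0.0816 without siCtrl library 1). HOXA6 had 8.91 and 2.21 with siSFPQ-2, 5.38 and 4.05 with siSFPQ-3, and 16.7 and 21.0 with siCtrl (log2 fold change -1.80, adjusted p = 0.0118, and 0.0633 and 0.11 without siCtrl library 1 and 2). The siSFPQ libraries of both genes rest on 10 or fewer reads each, and the siCtrl libraries of HOXA4 lie far apart. HOXA7, between them and the posterior genes, had a log2 fold change of 0.00 (95% interval -0.50 to 0.51).

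In the HOXB cluster 4 anterior and central genes, HOXB2, HOXB3, HOXB4 and HOXB6, did not pass and had log2 fold changes between -0.07 and 0.07, and the 95% interval of HOXB4 ran from -0.28 to 0.15 and that of HOXB6 from -0.21 to 0.25. HOXB7, a gene often overexpressed in carcinomas, had 701 and 611 normalized reads with siSFPQ-2, 709.9 and 702 with siSFPQ-3, and 938 and 1126 with siCtrl (log2 fold change -0.60, adjusted p = 0.00121). HOXB7 was thus lower than siCtrl in every siSFPQ library, as HOXB9 and HOXB13 were. The genes nearest to the threshold that did not pass were HOXB8 (log2 fold change -0.28, adjusted p = 0.052), HOXD8 (0.46, 0.0647) and HOXB5 (0.26, 0.105). HOXB8 had 388 to 438 in siSFPQ libraries and 473 and 519.5 in siCtrl libraries, and HOXD8 75.3 to 101 in siSFPQ libraries and 61.4 and 73.1 in siCtrl libraries, so neither overlapped between the groups. The 17 genes that did not pass had log2 fold changes from -0.40 to 0.46, 9 of them negative and 8 positive.

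Summed over its genes, the HOXA cluster had 3053 ± 492 normalized reads with siSFPQ (SD, n = 4) and 4731 ± 338 with siCtrl (SD, n = 2), a ratio of 0.645. The ratio was 0.936 for HOXB (21791 ± 1807 with siSFPQ and 23286 ± 966 with siCtrl), 0.813 for HOXC (1229 ± 82.2 and 1512 ± 205) and 0.856 for HOXD (1198 ± 172 and 1398 ± 44.8). The HOXA and HOXC sums were lower in each siSFPQ library than in both siCtrl libraries, as were the HOXD sums, while the HOXB sums overlapped. HOXB genes supplied between 78.6 and 81.0% of all HOX reads with siSFPQ and 74.8 and 75.8% with siCtrl. HOXB3 alone, which patterns the hindbrain, supplied 46.7 to 48.5% with siSFPQ and 38.8 and 41.0% with siCtrl, with 12236 to 14842 and 12232 and 12433 normalized reads; its span of 41372 bases also contains HOXB4 and MIR10A.

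Levels of different genes were compared per kilobase of RefSeq span only, and the part of a gene that the authors counted is unknown here. On this scale the highest HOX genes in siCtrl were HOXB9, with 307 normalized reads per kilobase under siSFPQ and 486 under siCtrl, HOXB4 with 392.1 and 411, and HOXB2 with 389 and 406. HOXB13 had 175 per kilobase with siSFPQ and 387 with siCtrl. The lowest in siCtrl were HOXC5, with 0.833 under siSFPQ and 0.739 under siCtrl, HOXC4 with 8.16 and 5.10, and HOXC8 with 7.38 and 7.32. The span of HOXC5 contains that of HOXC6, yet HOXC5 had a mean of 15.4 normalized reads with siSFPQ and HOXC6 217. Not all reads in the HOXC5 span were thus counted for HOXC5. The low rank of HOXC5, and of HOXC4 with its long overlapping span, may reflect the span used and not transcription. HOXB4 and HOXB2 did not differ in level beyond the spread of their libraries.

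The siRNAs against SFPQ gave like counts. Against siCtrl, siSFPQ-2 lowered 13 and raised 2 of the 36 HOX genes, where the background was 17.9% lower and 21.2% higher, and siSFPQ-3 lowered 13 and raised 3, where it was 20.4% and 23%. Both comparisons share the siCtrl libraries, and same-numbered libraries of the siRNAs against SFPQ deviated partly together (correlation 0.382). Passing with each siRNA were 11 falls (HOXA4, HOXA6, HOXA10, HOXA11, HOXB7, HOXB9, HOXB13, HOXC10, HOXC11, HOXC12 and HOXD9) and the rises of HOXC4 and HOXC6. The share of all features that passed with each siRNA was not counted, so these joint counts have no background here. HOXD10 and HOXD12 passed with siSFPQ-2 only (log2 fold changes -0.70 and -2.03 with siSFPQ-2, -0.49 and -1.49 with siSFPQ-3), and HOXA3 and HOXC9 passed with siSFPQ-3 and not with siSFPQ-2 (-0.46 and -0.66 with siSFPQ-3, -0.21 and -0.31 with siSFPQ-2). HOXD9 was at the threshold with siSFPQ-3 (adjusted p = 0.05). Without siCtrl library 1 the siSFPQ-2 counts became 7 lower and 0 higher, and the siSFPQ-3 count of rises became 1; without siCtrl library 2 the siSFPQ-3 count of falls became 8. Without siSFPQ-2 library 1 and library 2 in turn, siSFPQ-2 raised 1 HOX gene and siSFPQ-3 raised 5 and 6.

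Tested directly, siSFPQ-3 against siSFPQ-2, none of the 36 HOX genes passed by limma or edgeR, nor by DESeq2, which gave 4 of them no adjusted p. By limma 1 had an unadjusted p under 0.05, as did 12.5% of all features; over all features 0.0781% were higher and 0.023% lower. That gene was HOXB13, with a log2 fold change of -0.32 (95% interval -0.59 to -0.04, unadjusted p = 0.0276, adjusted p = 0.328). The intervals still allow differences between the siRNAs, for example from -0.77 to 0.14 for HOXC10 and from -0.06 to 0.61 for HOXC4.

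Several long non-coding RNAs of the clusters fell. Of 22 listed, 14 were in the table and 13 tested, of which 8 fell, 5 did not pass and none rose (median log2 fold change -0.75), where the background was 23.2% lower and 24.8% higher; 5 fell without either siCtrl library. PRAC2 is in this list although the table annotates it as protein-coding. HOXA11-AS, transcribed from the other strand beside HOXA11, had 326 and 307 normalized reads with siSFPQ-2, 309.8 and 250.1 with siSFPQ-3, and 605 and 691 with siCtrl (log2 fold change -1.12, adjusted p = 4.95e-05). HOXA-AS2 had 1463 and 1404 with siSFPQ-2, 1209 and 1070.5 with siSFPQ-3, and 2241 and 2234 with siCtrl (log2 fold change -0.81, adjusted p = 6.48e-05). HOXB-AS1, which overlaps HOXB2 and HOXB3, had 1253 and 1019 with siSFPQ-2, 1019.6 and 1012 with siSFPQ-3, and 1770.1 and 2207 with siCtrl (log2 fold change -0.88, adjusted p = 0.000184). In all of these the siSFPQ libraries were below both siCtrl libraries. HOTAIR, which is antisense to the HOXC cluster, overlaps HOXC11 and is best known for its proposed link to Polycomb silencing, was picked out after its values were seen: it had 443 and 373 with siSFPQ-2, 431 and 393 with siSFPQ-3, and 623 and 765 with siCtrl (log2 fold change -0.75, adjusted p = 0.000616). No source used here says if the counting used strand, so how far an antisense gene and its overlapping HOX partner share reads is unknown here. HOXA-AS2 had more reads in siCtrl than HOXA3 (1295 and 1409), which it overlaps. Not all HOXA-AS2 reads were thus counted for HOXA3.

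**Figure D3:**
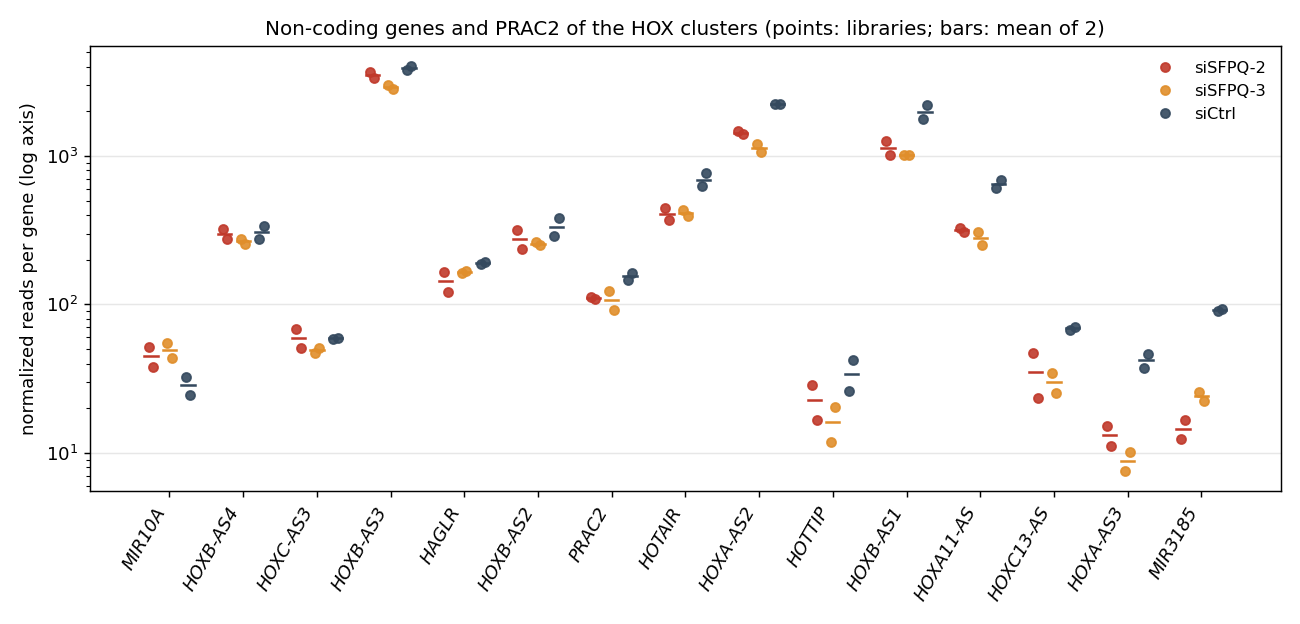
Normalized reads per library (log axis) of the tested long non-coding and microRNA genes of the HOX clusters and PRAC2, ordered by log2 fold change from the rise of MIR10A at the left (0.70) to the fall of MIR3185 at the right (-2.24). Points are libraries and short bars the mean of 2.

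The clusters also carry microRNA genes, whose products repress HOX mRNAs among other targets. Their mature sequences, from RefSeq on GRCh38.p14 with the seed (bases 2 to 8) in capitals, show that the 5p products of MIR196A1, MIR196A2 and MIR196B share 1 seed, which differs from those of hsa-miR-10a-5p and hsa-miR-3185.
hsa-miR-10a-5p: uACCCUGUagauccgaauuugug
hsa-miR-196a-5p: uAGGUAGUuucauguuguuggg
hsa-miR-196b-5p: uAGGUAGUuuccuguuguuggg
hsa-miR-3185: aGAAGAAGgcggucggucugcgg

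MIR3185, on chr17:48724408-48724475, lies 288 bases from the RefSeq span of HOXB13. It had 12.5 and 16.6 normalized reads with siSFPQ-2, 25.8 and 22.3 with siSFPQ-3, and 90.9 and 93.1 with siCtrl (log2 fold change -2.24, adjusted p = 5.39e-05). MIR10A, inside the span of HOXB3 and 1488 bases from HOXB4, had 51.7 and 37.6 with siSFPQ-2, 54.9 and 43.5 with siSFPQ-3, and 32.7 and 24.4 with siCtrl (log2 fold change 0.70, adjusted p = 0.0425). Both features are short, and reads from transcription of HOXB13 or HOXB3 may enter their values. The source of these reads was not tested. The MIR10A call was lost in 7 settings, among them leaving out siCtrl library 1 (adjusted p = 0.0695), siCtrl library 2 (0.281), siSFPQ-2 library 1 (0.107) or siSFPQ-3 library 1 (0.0856). MIR196B, 1042 bases from HOXA10, was below the filter with 1.78 and 1.11 under siSFPQ-2, 1.08 and 0 under siSFPQ-3, and 10.4 and 6.65 under siCtrl. MIR196A1, 6132 bases from HOXB9, was also below it, with 7.13 and 4.43 under siSFPQ-2, 8.60 and 6.08 under siSFPQ-3, and 12.7 and 9.97 under siCtrl. Neither was tested, though in both the siSFPQ libraries were lower than both siCtrl libraries. MIR10B and MIR196A2 had at most 3.32 in any library, and MIR615 was not analysed here. MIR5047 was listed with them but lies 15772480 bases from HOXB13, outside the cluster (log2 fold change 0.86, adjusted p = 0.0633).

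The profiles deposited by the authors give signal in 500 bins per gene, with 300 bins over the scaled gene. Over the whole gene HOXB13 had a mean profile signal of 56.0 ± 8.87 with siSFPQ (SD, n = 4) and 122 ± 20.6 with siCtrl (SD, n = 2), and HOXA10 had 126 ± 20.5 and 258 ± 5.32. HOXC10 had 26.2 ± 4.66 with siSFPQ and 81.0 ± 14.4 with siCtrl, and HOXC4 had 3.90 ± 0.679 and 2.37 ± 0.501. For these genes, the same groups were thus high and low in the profiles as in the table, which come from the same libraries. HOXA9 differed in this, as described in the last section. The signal on either side of HOXA10, HOXB13 and HOXC10 was lower with siSFPQ too. The other lower genes were not examined in this way. In the 100 bins after HOXB13 it was 64.5 ± 10.9 with siSFPQ and 249.7 ± 9.15 with siCtrl, and in the 100 bins before HOXC10 it was 58.4 ± 6.01 and 182 ± 32.04.

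**Figure D4:**
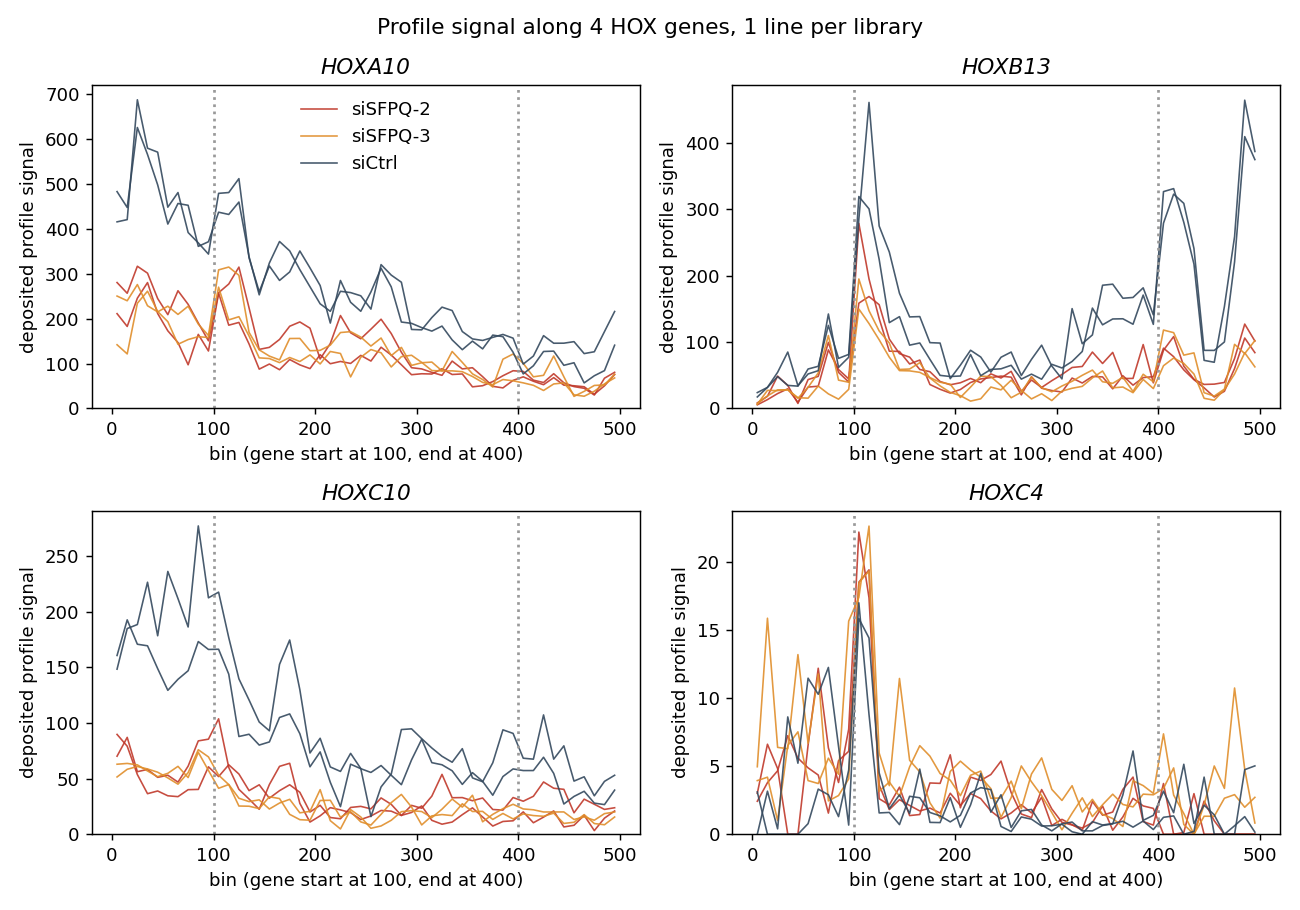
Deposited profile signal (vertical axis) along HOXA10, HOXB13, HOXC10 and HOXC4 in bins (horizontal axis, the gene between the dotted lines at 100 and 400), averaged over 10 bins, with 1 line per library. The siSFPQ lines run below the siCtrl lines over most of HOXA10, HOXB13 and HOXC10, and the HOXC4 signal is concentrated near the gene start in both groups.

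The distribution of signal along the gene was compared as well. The ratio of signal over the last 80% of the gene to that over its first 10%, which is higher when polymerase extends further past the start, was tested for the same 36 genes. None passed, 3 had an unadjusted p under 0.05 (32.5% of all genes did), and the median change was -0.11 on the log2 scale, against 10.9% of 20515 genes called in either direction (8.89% higher and 1.99% lower) and a median of 0.19 over all of them. HOXB13 had a change of -0.25 (95% interval -0.85 to 0.36) and HOXC10 one of 0.03 (-0.28 to 0.34). In HOXC11, another called fall, mean signal over the first 10% was 62.9 with siSFPQ and 47.2 with siCtrl. Over the last 80% it was 31.7 with siSFPQ and 54.3 with siCtrl, so HOXC11 did not fall evenly along its length, though its ratio did not pass either. The 3 genes lacking a row in the table had low profile signal: HOXA5 0.223 to 1.49 in siSFPQ libraries and 1.79 and 1.89 in siCtrl libraries, HOXD4 2.04 to 3.25 and 2.50 and 3.65, and HOXD13 0.177 to 0.495 and 0.377 and 0.404. Only HOXA5 separated the groups.

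Start-site sequence was looked up for the HOX genes in RefSeq windows of 300 bases (250 before to 50 after the start, GRCh38.p14), which were found for 20 of the genes in 27 windows, the window of HOXC4 and HOXC5 being the same. Windows of 2 called posterior genes from different clusters, of HOXA11, which has HOXA11-AS on the other strand, and of HOXC4, which rose, are given 5′ to 3′ on the strand of the gene. Capitals mark the letters CCAAT and TATAAA on either strand. HOXA10 is chr7:27179812-27180111 (minus strand), HOXD10 chr2:176116528-176116827 (plus), HOXA11 chr7:27185183-27185482 (minus) and HOXC4 chr12:54016638-54016937 (plus). HOXA10 has a further window for another start, chr7:27174271-27174570, which is not printed. That window also held CCAAT, at -54 from its start, and TATAAA, at -150.
HOXA10: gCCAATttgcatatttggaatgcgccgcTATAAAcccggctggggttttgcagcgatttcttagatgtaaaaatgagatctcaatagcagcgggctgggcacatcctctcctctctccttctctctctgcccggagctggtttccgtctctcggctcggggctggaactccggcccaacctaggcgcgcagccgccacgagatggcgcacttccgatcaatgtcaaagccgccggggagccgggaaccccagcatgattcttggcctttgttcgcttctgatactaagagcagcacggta
HOXD10: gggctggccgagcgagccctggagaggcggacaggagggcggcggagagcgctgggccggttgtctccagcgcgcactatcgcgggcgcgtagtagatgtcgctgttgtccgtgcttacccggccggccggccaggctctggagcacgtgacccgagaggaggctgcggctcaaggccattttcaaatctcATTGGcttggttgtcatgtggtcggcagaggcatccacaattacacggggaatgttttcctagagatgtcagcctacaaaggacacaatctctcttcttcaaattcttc
HOXA11: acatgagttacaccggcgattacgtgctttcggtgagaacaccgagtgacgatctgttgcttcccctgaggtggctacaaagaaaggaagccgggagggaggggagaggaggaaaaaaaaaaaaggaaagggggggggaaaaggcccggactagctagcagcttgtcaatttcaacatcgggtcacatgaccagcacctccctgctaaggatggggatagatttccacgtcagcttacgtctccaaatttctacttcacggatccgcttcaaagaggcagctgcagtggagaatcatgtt
HOXC4: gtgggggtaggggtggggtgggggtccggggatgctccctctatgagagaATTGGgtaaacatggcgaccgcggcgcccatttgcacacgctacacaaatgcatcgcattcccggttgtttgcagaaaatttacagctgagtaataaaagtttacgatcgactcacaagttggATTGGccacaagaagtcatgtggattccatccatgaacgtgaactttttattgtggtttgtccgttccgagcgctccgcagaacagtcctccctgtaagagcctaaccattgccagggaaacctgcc

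CCAAT was found in 18 of the 27 HOX windows and in 34.6% of all 35116 windows, and TATAAA in 5 of 27 and in 11.5%. TGATNNAT, a spacing read by PBX and HOX proteins together, was found in 3 of 27 and in 7.40%. Both strands were searched each time, and a hit on either one counted. CCAAT and TATAAA do not overlap in the windows printed. HOXA11 held none of the 3, and HOXC4, which rose, and HOXD10, which fell, both held CCAAT. The starts of HOXA11 and HOXA11-AS lie 176 bases apart, and both genes fell. The HOX windows had a median GC content of 58.0% (58.7% over all windows) and a median observed over expected CpG ratio of 0.849 (0.579 over all windows).

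Among the genes that bind with HOX proteins or act on the clusters, several groups were counted by the same test, with the same background of 24.8% of all features higher and 23.2% lower; these counts are descriptions, and none was tested against that background. Of 9 TALE-class cofactors, which pair with HOX proteins on DNA, 4 rose and none fell, PBX3 (log2 fold change 0.45), MEIS3 (0.61) and MEIS1 (0.45) among them; PBX3 lost its call without siCtrl library 1, and MEIS1 and MEIS3 without either siCtrl library. Of 17 Polycomb genes, which hold HOX clusters silent, 7 fell and 2 rose: the chromodomain genes CBX8 (-1.26) and CBX2 (-1.11) fell, and JARID2 (0.89) and PHC2 (0.99) rose. Of 16 genes listed with MLL and menin, which keep HOX genes active, 6 rose and 2 fell. Not all of the 16, MLLT3 and AFF1 among them, are subunits of the MLL and menin complexes. MLLT3 (1.384), AFF1 (0.87) and KMT2A (0.83) rose, and WDR5 (-0.67) and KMT2D (-0.59) fell. Retinoic acid is a signal that switches on anterior HOX genes, and of 14 genes of its pathway tested (19 listed), 5 fell and 3 rose. The receptor gene RARG (-1.79), CYP26B1 (-1.10), which breaks retinoic acid down, and STRA6 (-0.93), a retinol carrier receptor, fell. CRABP2 (0.85), CYP26C1 (0.71) and CYP26A1 (0.85) rose, CYP26C1 losing its call without siCtrl library 1 and CYP26A1 without either siCtrl library and without siSFPQ-2 library 1, siSFPQ-2 library 2 or siSFPQ-3 library 2. Median log2 fold changes were -0.04 for the TALE genes, -0.21 for Polycomb, 0.13 for MLL and menin and -0.14 for retinoic acid genes, and the 6 ParaHox and CDX genes were not in the table analysed here.

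Genes next to the clusters went both ways. Of 17 tested, 7 rose and 5 fell (median log2 fold change 0.01), beside 24.8% and 23.2% of all features. PRAC1, which sits beside HOXB13, had 206 and 213 normalized reads with siSFPQ-2, 200.1 and 222 with siSFPQ-3, and 309 and 383 with siCtrl (log2 fold change -0.71, adjusted p = 0.0014). TTLL6 (-1.03) and ATP5MC3 (-0.43) fell as well, ATP5MC3 losing its call without either siCtrl library, and CALCOCO1 (1.07), CALCOCO2 (0.93) and TAX1BP1 (0.63) rose.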

How the data were processed

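PRO-seq libraries of SBC-3 cells were analysed from the authors' deposited table, which gives signal per feature as normalized reads, 1 value per library. DESeq2 1.38.1, Bowtie2, cutadapt 1.14, SAMtools 1.3.1 and UMI-tools are named per the submitters' processing notes, with builds hg38 and dm6. The role of each build, the annotation, the counted part of a gene and strand use are not given in these sources. The authors' deposited log2 fold change and adjusted p-value per feature were not used for any result. The authors also deposited profile signal per gene and library.

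Of 26067 lines, 240 repeats were removed, and the 21773 features that reached 10 in 2 or more libraries entered limma 3.58.1 (trend, R 4.3.3) on the scale log2(value + 1), in a single fit of 3 groups over all 6 libraries. P-values were adjusted by Benjamini-Hochberg over all features. Every value was a whole multiple of 1 read (100% at a tolerance of 0.1 read), so edgeR 4.0.16 and DESeq2 1.42.0 were run on the recovered reads as alternatives, an addition to the planned test on normalized values; they called 19 and 16 HOX genes. Other alternatives were pseudocounts, filters, scaling to the same total, the replicate number as a block and leaving out each library. On simulated data the limma step recovered 80% of genes changed by 1 and 97% of those changed by 2 on the log2 scale in the comparison of both siRNAs with siCtrl (21773 features). Only 100 genes were changed at each size, all genes had the same relative spread beyond sampling noise, and replicates were independent. The data differ in this, with far more features called, so these shares need not hold for them. Replicates differed by more than sampling noise (chi-square per degree of freedom 11.7, 24.2 and 11.0 in siSFPQ-2, siSFPQ-3 and siCtrl pairs), so no pair looks like 1 library deposited again; this does not show that they came from separate cultures.

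For the ratio along the gene, 0.1 times the median window signal of the library was added to both windows. Named members were all HOX genes; from each accompanying list, up to 3 called genes in each direction with the smallest p, and every microRNA. Some listed genes enter the counts but are not reported here by name or drawn. Members, lists and tests were chosen with earlier results of these data known.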

Additional observations from a re-analysis of the deposited data

How the results depend on the processing

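Leaving out libraries moved the counts of HOX genes past the threshold. For both siRNAs against siCtrl, leaving out each library in turn gave 8 to 19 lower and 1 to 6 higher, against 16 and 3; where only 1 siCtrl library remained, it was assumed to vary like the other groups. For siSFPQ-2 it gave 7 to 14 lower and 0 to 2 higher, and for siSFPQ-3 8 to 13 lower and 1 to 6 higher. Posterior HOX genes called lower ranged from 7 to 13 and long non-coding RNAs of the clusters from 5 to 11, settings added after seeing the data. All other settings gave 14 to 17 lower HOX genes for both siRNAs. With the replicate number as a block, HOX genes called higher were 5 for both siRNAs and 6 for siSFPQ-3, and lower ones 17 and 16. The labels give a replicate number and no pairing. The differences between replicates 1 and 2 correlated at 0.382 between siSFPQ-2 and siSFPQ-3, so same-numbered siSFPQ libraries deviated partly together. With siCtrl these differences correlated at 0.0529 and 0.0587. The main fit had no term for such sharing. The ratio along the gene called 1 HOX gene, HOXA9 (0.44 on the log2 scale, adjusted p = 0.0312), with a pseudocount of 0.5 times the median. None of the 19 HOX calls for both siRNAs changed direction in the settings run, and the cause of these shifts was not tested. Genes of few reads, such as HOXA4, HOXA6 and HOXD12, are limited by depth.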

Other observations

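HOXA9 gave different pictures in the deposited table and profiles. Its table value was 53.2 to 76.6 normalized reads in siSFPQ libraries and 66.1 and 87.5 in siCtrl libraries, which overlap. Its mean profile signal over the gene was 86.6 to 113 in siSFPQ libraries and 159.8 and 174 in siCtrl libraries, which do not, and by profile it ranked 10 among the 39 HOX genes with siSFPQ and 7 with siCtrl. The RefSeq read-through gene HOXA10-HOXA9 overlaps both HOXA9 and HOXA10; its part in the HOXA9 values was not tested.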
